A study of Mus musculus with 10 samples.

Results

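Retained tiles are stretches of 100 bp that were methylated in sperm and also carried methylation in blastocysts. They were chosen among autosomal tiles with at least 10 counts in both sperm libraries and at least 5 counts in each of the 8 embryo libraries. A tile counts as sperm-methylated at 80% or more in both sperm libraries, and as retained when the mean of its 4 blastocyst percents, WT and CKO together, was at least 50%. Of 14506 tiles with this coverage, 4778 were sperm-methylated. Of these, 653 (13.7%) were retained, and the remaining 4125 are called the other sperm-methylated tiles. The sperm and blastocyst levels chose the tiles and are therefore given as descriptions. The zygote levels did not enter the choice.

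The series profiles DNA methylation by reduced representation bisulfite sequencing (RRBS), in which the enzyme MspI cuts at CCGG sites and CpG-rich fragments are read after bisulfite conversion. The sperm libraries are from the inbred strain CAST/EiJ and are labelled WT. All embryos were made by fertilising C57BL/6J eggs in vitro with sperm of adult CAST/EiJ males, the egg donors being superovulated females of 7 to 10 weeks. They form 4 groups of 2 libraries: WT zygotes and CKO zygotes at 13 hours after fertilisation (40 to 50 zygotes a library), and WT blastocysts and CKO blastocysts at 96 hours (4 blastocysts a library). CKO stands for the genotype maternal Tet3 KO. The promoter or Cre line behind the deletion is not given in the sources used here. Each library pools embryos, so a value is an average over several embryos and all their cells.

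Sperm DNA is densely methylated outside CpG islands, and the paternal genome loses much of this mark soon after fertilisation. Tet3, a dioxygenase stored in the egg, oxidises 5-methylcytosine in the paternal pronucleus, and replication without maintenance dilutes methylation further until the blastocyst, where the genome reaches its lowest level. Imprinting control regions and some retrotransposons are known for keeping methylation through this period. Bisulfite sequencing reads 5-methylcytosine and 5-hydroxymethylcytosine alike. Whether the reads were assigned to the paternal allele is not given in the sources used here, so the maternal share of each embryo value is unknown. The deposited tables of all libraries, embryos included, are named for CAST, the strain of the fathers, with no explanation of the name in those sources. Coordinates are those of the deposited tables (mm9). No annotation of that build was used, so no tile is assigned to a gene, an exon, an intron or a repeat.

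Library totals ranged from 1005492 counts in a CKO blastocyst library to 2535229 in a sperm library. The retained tiles were read about as deeply as the others, with medians of 17 to 20 counts a tile in the blastocyst libraries for both sets and of 22 to 27 against 18 to 26 in the zygote libraries. Counts are summed over the cytosine positions of a tile, and positions close together are covered by the same reads. At its deepest position, a retained tile had a median of 13.5 counts in an embryo library and the other tiles 14. In 471 of the 653 retained tiles (72.1%) that position had at least 5 counts in each embryo library, as it did in 76.5% of the others. Reads have no molecular identifiers, so intervals cover counting error only.

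In blastocysts the retained tiles averaged 56.8% and 56.5% in the WT libraries and 62.9% and 60.6% in the CKO libraries. The other sperm-methylated tiles averaged 22.1% and 20.8% in WT and 31.0% in both CKO libraries. The gap is what the choice asked for and is no finding. Most retained tiles lay close to the threshold: 403 had a blastocyst mean under 60%, 185 had 60% to under 70%, and 65 had 70% or more, of which 12 reached 80%. The 3 tiles just inside had a mean of 50.0% and the 3 just outside 49.8%. Sperm levels were alike, at 97.0% ± 0.221 (SD, n = 2) in retained and 96.6% ± 0.0241 (n = 2) in the other tiles.

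**Figure D1:**
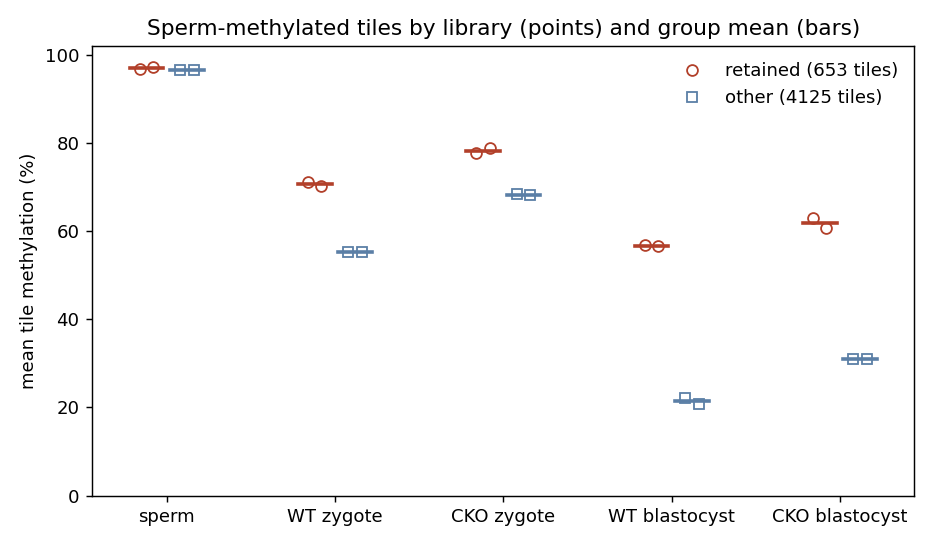
Mean methylation of the retained and the other sperm-methylated tiles (y axis, percent) in each of the 10 libraries, by group (x axis). Each point is the mean over tiles in a library and each bar the mean of 2 libraries: the retained tiles lie above the others in all 4 zygote libraries, which the choice did not use.

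The level did not hold in every blastocyst library. Of the 653 retained tiles, 66 were at 50% or more in all 4 libraries, 306 in 3, 266 in 2 and 15 in 1. Both genotypes had a mean of 50% or more in 265 tiles, CKO alone in 229 and WT alone in 159. Replicates of a retained tile differed by a median of 25 points in WT and 29.3 points in CKO blastocysts, against 2.21 points in sperm. For a single tile, replicate blastocyst libraries thus differed nearly as much as the sets did on average.

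To read the level in libraries that had no part in the choice, tiles were also picked at 50% or more on 2 blastocyst libraries and read in the other 2. Tiles picked on the replicate 1 libraries (948 of 4778) averaged 62.6% in those libraries but 36.2% in WT replicate 2 and 42.0% in CKO replicate 2. The tiles not picked had 23.05% and 33.3% there. Tiles picked on the replicate 2 libraries (883) averaged 62.4% in them, 38.0% in WT replicate 1 and 41.8% in CKO replicate 1, against 24.4% and 33.9% for those not picked. Picked tiles were therefore higher than the rest in all 4 libraries not used, but lower there than in the libraries used. A mean of 50% or more in the unused pair recurred in 306 tiles, which is 32.3% of those picked on replicate 1 and 34.7% of those picked on replicate 2. It occurred in 15.1% and 16.5% of the tiles not picked.

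The same holds from genotype to genotype. The 751 tiles at 50% or more in WT blastocysts averaged 41.7% and 41.3% in the CKO libraries, against 34.2% and 33.9% for the rest. The 1234 tiles at 50% or more in CKO blastocysts averaged 32.2% and 30.7% in the WT libraries, against 24.998% and 23.9%. In the other genotype, 35.3% and 21.5% of the picked tiles reached 50%, against 24.1% and 13.7% of the tiles not picked.

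**Figure D2:**
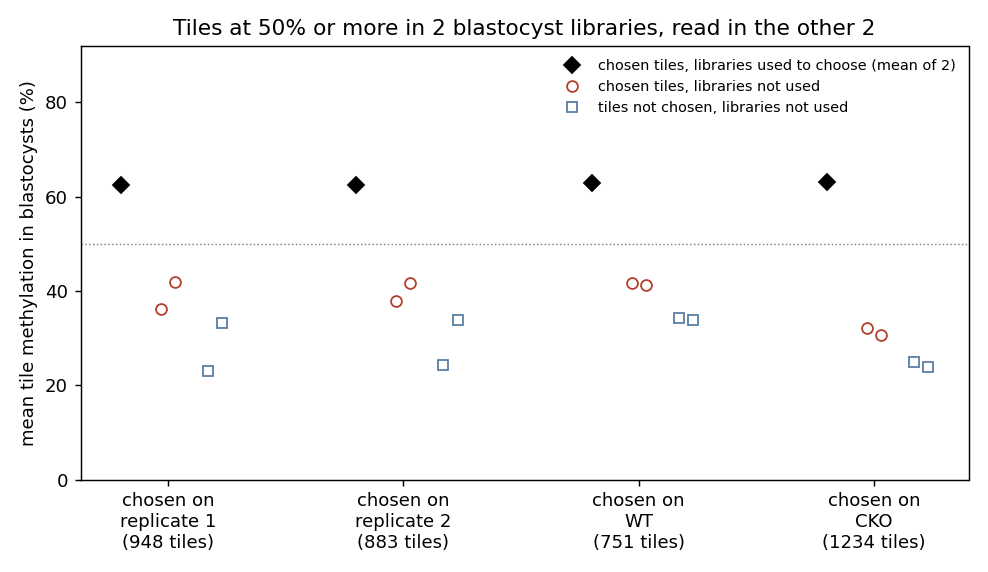
Mean blastocyst methylation (y axis, percent) of sperm-methylated tiles picked at 50% or more on 2 libraries (x axis, which libraries were used). Diamonds give the picked tiles in the libraries used, circles the same tiles in each library not used and squares the tiles not picked: circles lie between 30.7% and 42.0%, above the squares beside them and under the dotted line at 50%.

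Zygotes were compared next, because their methylation had no part in the choice. Tiles that were retained in blastocysts were already more methylated in zygotes. The retained tiles averaged 71.1% and 70.2% in the WT zygote libraries, where the others had 55.2% and 55.3%. In the CKO zygote libraries they averaged 77.6% and 78.8%, against 68.4% and 68.2%. Retained tiles were higher in 4 of 4 libraries, by 15.9 and 14.9 points in WT and 9.25 and 10.6 points in CKO, a mean of 12.7 ± 3.23 points (SD, n = 4 libraries). An exact sign-flip permutation test over the libraries gave a two-sided p of 0.125, the smallest that 4 libraries allow. The difference was above 0 on all 19 autosomes. It was 6.16 points when tiles were chosen on the CKO blastocysts alone, less than the 12.2 points obtained when they were chosen on the WT blastocysts alone.

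The zygote means of single retained tiles ran from 10% to 100%, with a median of 75.2%, against a median of 61.0% in the others. A mean of 80% or more was found in 266 retained tiles (40.7%) and 613 others (14.9%), and a mean under 50% in 55 (8.42%) and 1017 (24.7%). At least 80% in each of the 4 zygote libraries was reached by 115 retained tiles and 131 others. Turned around, the share of sperm-methylated tiles that were retained rose with every step of the zygote level, from 2.88% of the 416 tiles under 40% and 8.38% of the 1026 tiles at 50 to 60% to 23.6% of the 530 tiles at 80 to 90% and 40.4% of the 349 tiles at 90% or more. Most tiles that were nearly full in zygotes therefore still fell under the threshold in blastocysts. The blastocyst level was a median of 78.4% of the zygote level in retained tiles and 42.8% in the others, a ratio that the choice itself raises.

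Among retained tiles the zygote replicates differed by a median of 20.0 points in WT and 16.7 points in CKO, and among the others by 28.6 and 22.0 points.

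**Figure D3:**
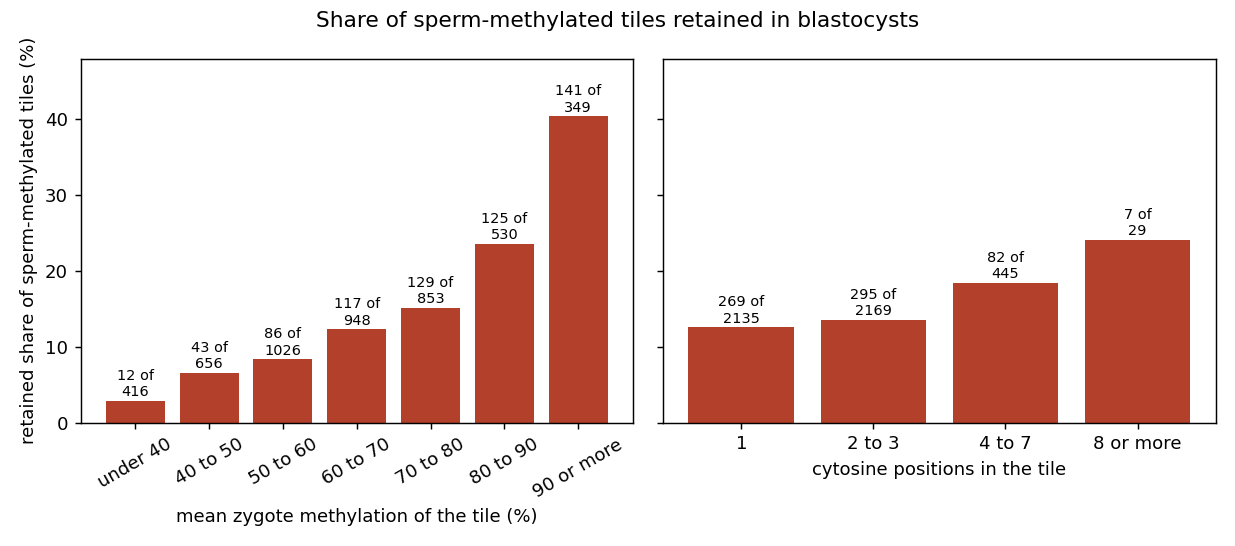
Share of sperm-methylated tiles that were retained (y axis, percent), by mean zygote methylation of the tile (left) and by the number of cytosine positions seen in it (right). The numbers over the bars are retained tiles of all tiles in the class: the share climbs from 2.88% to 40.4% with the zygote level and from 12.6% to 24.1% with the number of positions.

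The genotype comparison asks whether the retained tiles differ in zygotes when the egg lacks Tet3. At the retained tiles CKO zygotes had the higher methylation, 78.2% ± 0.873 (SD, n = 2), and WT zygotes had 70.6% ± 0.616 (SD, n = 2). They were 7.59 points apart with an SD of 1.07, and the libraries of the genotypes did not overlap. An exact permutation test over 2 libraries against 2 gave a two-sided p of 0.333 and can give none smaller. CKO was higher on all 19 autosomes. By tile, CKO had the higher mean in 386 retained tiles, the lower in 242 and the same in 25.

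Averaged over all zygote levels, the genotype difference was smaller in the retained tiles than in the others. There, CKO zygotes had 68.3% ± 0.0906 and WT zygotes 55.2% ± 0.0629 (SD over 2 libraries), which lie 13.1 points apart. The gap between the sets, retained minus other, was -5.48 points with an SD of 1.18 (exact permutation p = 0.333 over libraries, again the smallest possible). Without CKO blastocyst replicate 1, which changes the tiles chosen, this gap was -3.62 points, and with tiles chosen on the CKO blastocysts alone it was -1.77 points. By class of zygote mean the order of the sets varied, and the retained tiles had the smaller genotype difference in 3 classes. It was 13.8 ± 7.04 against 16.8 ± 1.44 points (SD) at 50 to 60%, within the SD of the retained tiles, 5.32 ± 3.71 against 9.14 ± 0.724 at 70 to 80%, and 2.00 ± 2.04 against 4.07 ± 1.63 at 80 to 90%. They had the larger one under 40%, with 29.6 ± 5.12 against 20.4 ± 2.00 points, where 12 of the 416 tiles were retained. The retained tiles also had the larger one at 40 to 50% (18.9 against 17.7 points), 60 to 70% (13.7 against 12.9) and 90% or more (0.451 against 0.236). In these classes the sets differed by less than the SD of the retained tiles. All classes were formed from the same 4 zygote libraries whose difference is given. A mean near 100% leaves room for small differences alone, so no trend is read from the classes. Over tiles with a zygote mean under 80%, a restriction added after the values were seen and with the same limit, the genotype difference was 12 points in retained tiles, and retained minus other was -2.87 points (SD 1.27).

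No single retained tile passed the test between genotypes in zygotes. edgeR's quasi-likelihood test with Benjamini-Hochberg adjustment called 0 of 653, as it called 0 of all 14811 tiles tested (0%). limma and edgeR with a common dispersion also called 0 of all tiles. edgeR's likelihood ratio test called 4 of all tiles (0.027%) and 0 of the 653. At an unadjusted p below 0.05, edgeR had 52 retained tiles (7.96%), against 4.08% of all tiles. CKO was higher in 43 of them, which is 6.58% of the retained tiles against 3.51% of all tiles. It was lower in 9, which is 1.38% against 0.574%. No such share is given for the other sperm-methylated tiles. The zygote libraries did not overlap in 137 retained tiles with CKO higher and in 51 with CKO lower. That is 21.0% and 7.81% of the retained tiles. The same was found in 14.1% and 4.53% of all tiles tested and in 28.4% and 7.61% of the other sperm-methylated tiles. On simulated counts at these depths, a true change of 40 points was called in 1% of cases and a true change as large as 60 points in 14%, so single-tile changes of this size were rarely detectable.

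The largest zygote differences are listed for tiles with at least 10 counts in each embryo library and no overlap. On chromosome 6 at positions 128291201 to 128291300, methylation was 25% and 0% in the WT zygote libraries and 81.8% and 100% in the CKO zygote libraries (edgeR, adjusted p = 0.666). The blastocyst libraries of this tile kept the same order, with 58.3% and 40.0% in WT and 100% in both CKO libraries. On chromosome 1 at positions 183747401 to 183747500, both WT zygote libraries had 0%, and the CKO libraries had 56.3% and 92.9%. In blastocysts these libraries overlapped, at 9.09% and 50.0% in WT and 100% and 45.5% in CKO. The largest difference the other way lay on chromosome 12 at positions 87010001 to 87010100, with 87.5% and 88.9% in WT zygotes and 28.6% and 54.7% in CKO zygotes. Of the 253 retained tiles at this depth, 62 (24.5%) had CKO zygotes higher without overlap, against 12.4% of all tiles and 28.6% of the other sperm-methylated tiles. In 15 (5.93%) they were lower, against 4.09% and 7.99%.

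In blastocysts the genotypes are compared as a description, since the choice used these libraries. CKO exceeded WT by 5.09 points in the retained tiles (SD 1.61) and by 9.55 points in the others (SD 0.965). The value for the retained tiles depended on the libraries behind the choice. It was 8.92 without WT blastocyst replicate 1, 10.4 without WT replicate 2 and 2.82 without CKO replicate 1. CKO had the higher mean in 371 retained tiles and the lower in 279, and was higher on 17 of 19 autosomes. Over all 14811 tiles, edgeR's quasi-likelihood test called 0 between blastocyst genotypes. Without adjustment 388 had a p under 0.05. limma and the likelihood ratio test called 0 as well. Calls are not counted over the retained tiles, which these libraries chose. The libraries did not overlap in 155 tiles with CKO higher, where all tiles had 13.1% and the other sperm-methylated tiles 27.1%. They did not overlap in 101 with CKO lower, where all tiles had 5.98% and the other sperm-methylated tiles 9.19%.

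The tiles with the most even retention are those whose lowest blastocyst library was highest. The first lay on chromosome 1 at positions 24426101 to 24426200, with 4 cytosine positions. It had 97.4% and 100% in sperm and 100% in all 4 zygote libraries. In blastocysts it had 100% and 97.5% in WT and 75.0% in both CKO libraries. WT blastocysts were methylated at 17 or 18 of 18 counts at each position, while CKO blastocysts ran from 15 of 16 at position 24426148 to 7 of 16 at position 24426191. This tile was thus nearly full except in CKO blastocysts, where its last 2 positions were lower. CKO blastocyst replicate 1 had only 4 counts at each position.

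The next lay on chromosome 12 at positions 110764901 to 110765000, with 7 positions and 511 embryo counts. It had 91.3% and 100% in WT zygotes, 100% and 91.0% in CKO zygotes, 76.9% and 93.3% in WT blastocysts, and 80.0% and 74.6% in CKO blastocysts. The genotypes overlapped at both stages. Its 7 positions were covered by 8 to 29 counts in the pooled CKO blastocysts, where the level ran from 37.5% to 100%.

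Of the 10 tiles named by this rule, 7 had a zygote mean of 89.6% or more. On chromosome 7 at positions 26125501 to 26125600, all zygote libraries had 100%, on 6 to 10 counts summed over 3 positions. WT blastocysts had 64.3% and 66.7% there, and CKO blastocysts 78.6% and 90.5%, on 14 to 21 counts. On chromosome 12 at positions 5057701 to 5057800, which holds 1 position, WT blastocysts had 83.3% and 65.0% and both CKO blastocyst libraries 100%. The CKO values rest on 5 and 12 counts. On chromosome 11 at positions 12678401 to 12678500, WT blastocysts had 92.9% and 81.3% and CKO blastocysts 100% and 69.2%. A pair of adjoining tiles on chromosome 14 (starts 119162801 and 119162901) held 1 position each with the same count in every library, 169 in the embryos in all, and lay at 62.1% to 100% in blastocysts.

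The remaining 3 of the 10 were intermediate in WT zygotes. On chromosome 11 at positions 116150401 to 116150500, WT zygotes had 29.4% and 67.9% and CKO zygotes 88.9% and 100%. In this tile WT blastocysts had 71.4% and 95.5% and CKO blastocysts 80.0% and 100%. These rest on 7 and 22 counts in WT and 5 and 11 in CKO, summed over 4 positions. On chromosome 13 at positions 47414201 to 47414300, WT zygotes had 31.8% and 52.2%, CKO zygotes 83.3% and 71.8%, WT blastocysts 59.4% and 60.6%, and CKO blastocysts 84.6% and 80.8%. CKO was higher there in every library at both stages. On chromosome 7 at positions 129315301 to 129315400, the genotypes overlapped in both stages, with 44.6% to 100% in zygotes and 59.3% to 76.9% in blastocysts.

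**Figure D4:**
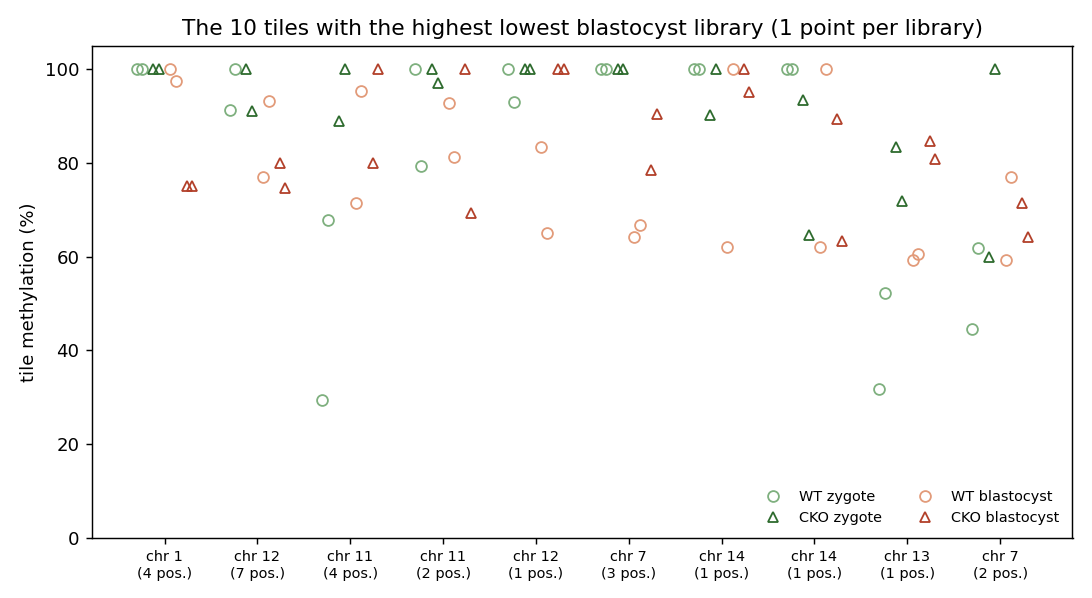
Methylation (y axis, percent) of the 10 retained tiles with the highest lowest blastocyst library, 1 point per zygote or blastocyst library, labelled by chromosome and number of cytosine positions (x axis). In these tiles every blastocyst point lies at 59.3% or more, while the WT zygote points of 3 tiles reach down to 29.4%, 31.8% and 44.6%.

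At the other end, 131 of the 653 retained tiles had a zygote mean under their blastocyst mean. The choice on the blastocyst level itself raises this count, and no matching count is given for the other tiles. The 5 with the lowest zygote mean had 10% to 33.1%. On chromosome 5 at positions 47292801 to 47292900, both WT zygote libraries had 0% and the CKO zygote libraries 58.3% and 74.1%. The blastocyst libraries of this tile had 85.7% and 55.6% in WT and 80.0% and 70% in CKO. It holds 1 position, with 17 and 5 counts in the WT zygote libraries and 7 and 9 in the WT blastocyst libraries. On chromosome 9 at positions 61148401 to 61148500, WT zygotes also had 0% in both libraries, on 10 and 8 counts. CKO zygotes had 33.3% and 81.0% there, and the blastocysts ran from 32.0% to 80.0%. The other 3 tiles of this kind (chromosome 7 from 121258101, chromosome 2 from 117344101 and chromosome 3 from 115359701) each had 70 to 171 counts over the 8 libraries, and 2 of them had a blastocyst library at 0%. Zygote libraries of a genotype differed by up to 64.8 points in these tiles, and none was tested for a rise from zygote to blastocyst.

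Retained tiles held slightly more cytosine positions than the others. The median was 2 positions in both sets and the mean 2.17 against 1.96, while all covered tiles had a median of 3 and a mean of 3.68. With adjacent positions, which can be the 2 strands of a CpG, counted as 1, the mean was 2.00 CpGs in retained, 1.81 in other and 3.24 in all covered tiles. At least 4 positions were found in 89 retained tiles (13.6%, exact 95% interval 11.1 to 16.5) and 385 others (9.33%). The interval treats tiles as independent, though adjoining tiles can share reads, so it is no test against the others. By class, 12.6% of the 2135 tiles with 1 position were retained, 13.6% of 2169 with 2 to 3, 18.4% of 445 with 4 to 7, and 24.1% (7) of 29 with 8 or more. Summed counts grow with the number of positions, and the retained share also moved with the count. It was 13.4% of 202 tiles at a median under 10 counts a library, 12.7% of 2157 at 10 to 20, 13.7% of 1853 at 20 to 40, 16.3% of 520 at 40 to 80 and 26.1% of 46 at 80 or more. The part of depth in the position classes was not tested. At 10 or more counts in each embryo library, at least 4 positions were found in 23.7% of the 253 retained and 16.5% of the 1628 other tiles.

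The 7 retained tiles with 8 or more positions were highly methylated in zygotes, with means from 78.6% to 99.3%. With adjacent positions counted as 1, they held 3 to 9 CpGs. They had the largest genotype gap in blastocysts of the 4 position classes, 17.6 points against 4.42 to 5.63 points, on few tiles. The 22 other sperm-methylated tiles of that class had nearly the same gap, 17.5 points. The deepest retained tile of this kind lay on chromosome 5 at positions 122022701 to 122022800, with 908 embryo counts. WT zygotes had 62.2% and 74.6% and CKO zygotes 100% and 97.2% (edgeR, adjusted p = 0.531). WT blastocysts had 31.4% and 29.6% and CKO blastocysts 83.3% and 72.3%. CKO was higher without overlap at both stages, and the mean of 54.2% that made this tile retained rested on CKO. At its 6 well-covered positions WT blastocysts had 15.4% to 57.7% of 26 counts and CKO blastocysts 72.7% to 81.0% of 21 or 22 counts.

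Another tile with 8 or more positions on chromosome 5, at positions 9408201 to 9408300, was retained in the same way. It held 10 positions but 5 CpGs. Zygotes had 79.7% and 75.0% in WT and 80.6% and 79.2% in CKO, and blastocysts 30.0% and 27.0% in WT and 100% and 76.9% in CKO. CKO blastocyst replicate 1 had at most 2 counts at any position of this tile, so its 100% rests on few reads. On chromosome 7 at positions 130315501 to 130315600, the order was the opposite, with 69.2% and 67.0% in WT and 34.7% and 55.6% in CKO blastocysts. Of the retained tiles with 8 or more positions, the highest blastocyst mean lay on chromosome 4 at positions 19223901 to 19224000. That tile had 97.1% or more in every zygote library. Its blastocyst libraries had 45.0% and 66.7% in WT and 66.7% and 93.2% in CKO.

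The retained tiles were spread over all 19 autosomes. Their share of the sperm-methylated tiles ran from 9.69% on chromosome 10 (25 tiles) to 16.3% on chromosome 3 (33 tiles), and chromosome 5 held the largest number (57). When tiles within 1 kb were joined, the 653 tiles formed 625 sites, of which 597 held a single tile and 28 a pair. None held 3 or more. The pair with the most counts lay on chromosome 7 at positions 52632101 to 52632300, with 7 positions. It had 84.2% to 98.1% in the zygote libraries and 45.7%, 49.3%, 65.5% and 46.6% in the WT and CKO blastocyst libraries in turn. The next pair, on chromosome 3 at positions 56225601 to 56225800, had 73.8% and 46.3% in WT and 54.1% and 72.0% in CKO blastocysts. The third, on chromosome 5 at positions 77466901 to 77467100, had 77.6% and 88.9% in WT but 19.4% and 53.4% in CKO blastocysts.

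Sperm-methylated tiles near a retained tile had higher blastocyst means than those near the others in most libraries. Some of these neighbours were themselves retained, so these same blastocyst libraries chose them. Of the 653 retained tiles, 110 had a sperm-methylated tile directly beside them, which can share reads. It was itself retained in 45.5% of these cases, against 8.71% beside the 689 other tiles with such a neighbour. At 1 to 5 kb, 35 retained tiles had a sperm-methylated tile, which could itself be retained. These neighbours averaged 33.8% and 33.5% in the WT and 45.8% and 43.3% in the CKO blastocyst libraries. The neighbours of 241 other tiles averaged 23.01% and 23.2% in WT and 35.4% and 35.8% in CKO, lower in each of the 4 libraries. A retained neighbour at this distance was found for 12 of the 35 (34.3%) and 27 of the 241 (11.2%). Of all neighbours at this distance, 30.8% beside retained tiles and 9.54% beside the others were retained. The choice therefore sets part of the gap, and the neighbours without retained tiles were not compared. At 200 bp to 1 kb there were 14 and 85 tiles, and there the neighbours of retained tiles were higher in 3 libraries, while in CKO replicate 1 they had 35.9% against 37.2%. Zygote levels at 1 to 5 kb also differed, with 68.9% and 68.1% in WT and 74.2% and 74.5% in CKO beside retained tiles and 59.4%, 56.3%, 69.2% and 70.8% beside the others. Tiles of the same neighbourhood share libraries and are not independent, so these values are given without a test.

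**Figure D5:**
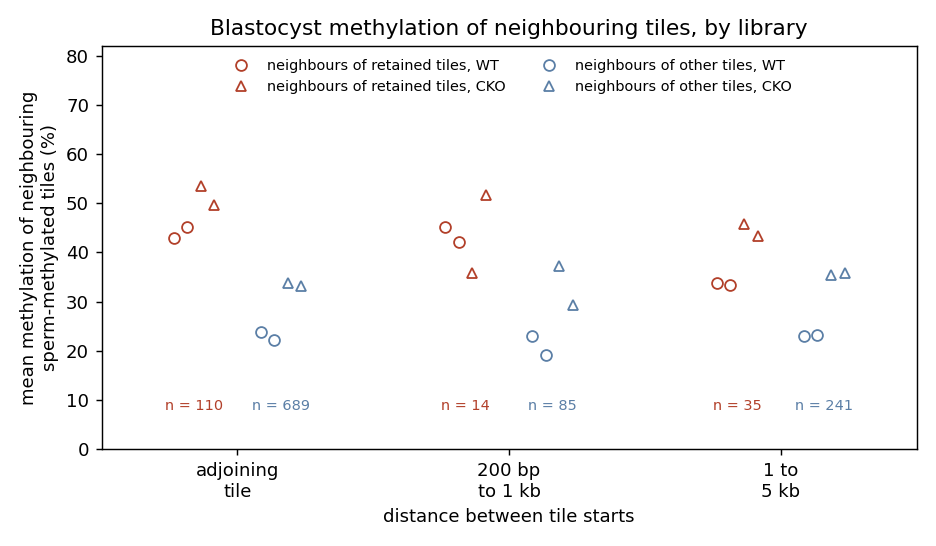
Mean blastocyst methylation (y axis, percent) of sperm-methylated tiles at 3 distances (x axis) from retained tiles and from the other sperm-methylated tiles. The neighbours include tiles that are themselves retained. Each point is a library (circles WT, triangles CKO) and n is the number of tiles with a neighbour: at 1 to 5 kb the neighbours of retained tiles lie at 33.5% to 45.8% and those of the others at 23.01% to 35.8%.

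Distance to unmethylated DNA separated the sets little. A tile with 20% or less in both sperm libraries lay within 2 kb of 28 retained tiles (4.29%) and 171 others (4.15%). The median distance to such a tile was 53.1 kb for retained and 41.7 kb for other tiles. The retained share was 14.1% within 2 kb, 10.5% at 2 to 10 kb, 12.6% at 10 to 50 kb and 15.4% beyond 50 kb.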

How the data were processed

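Per the submitters' processing notes, Bismark 0.10.1, Trim Galore and the build mm9 were used. The sources used here give neither the settings nor whether alleles were separated. For each cytosine position the deposited tables give 2 read counts, methylated and unmethylated, and the authors' percent, which equals the methylated share of those counts to within 0.001 at 100% of positions. Samples were grouped by the labels as 5 groups of 2 libraries, called biological duplicates there.

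Counts were summed over 100-bp tiles counted from position 1. Set values are means of tile percents per library, compared by exact permutation over libraries. All 14811 autosomal tiles with 5 or more counts in each embryo library were tested with edgeR 4.0.16 (R 4.3.3): quasi-likelihood F-test on both counts of a tile, a depth term per library, dispersion 0, 4 groups and Benjamini-Hochberg adjustment at 0.05. Dispersion 0 follows an earlier analysis that chose it after seeing these data. The script was tested on simulated data. limma 3.58.1 used log2 ratios with 2 added to each count. Cytosine positions are those with a count in any embryo library.

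The members and lists were chosen with earlier results of these data known. Named tiles follow a rule: the 10 with the highest lowest blastocyst library, those with 8 or more positions, the 5 with the lowest zygote mean, the 5 largest zygote genotype differences each way without overlap at 10 or more counts, the 3 longest runs, any tile called by edgeR (none was), and 3 tiles on each side of the threshold. Only some are described in full. Alternatives changed the count minimum, thresholds, tile start, pooling, position number, libraries, test and replicate block.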

Additional observations from a re-analysis of the deposited data

Results flagged for a closer look

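In 2 of the named tiles the genotype difference had opposite signs in zygotes and blastocysts, with no overlap between the libraries at either stage. This difference between the stages was not tested. On chromosome 12 at positions 87010001 to 87010100, the zygote genotypes differed by -46.6 points (CKO minus WT) and the blastocysts by 28.6 points, where WT had 33.3% and 44.4% and CKO 60% and 75.0%. On chromosome 14 at positions 35380401 to 35380500, CKO minus WT was 61.4 points in zygotes (25% in both WT libraries, 100% and 72.7% in CKO). It was -39.2 points in blastocysts, with 73.3% and 75.0% in WT and 70% and 0% in CKO. Summed over its 3 positions, the chromosome 12 tile had 21 and 27 counts in WT and 15 and 12 in CKO blastocysts. The chromosome 14 tile had 60 and 16 in WT and 40 and 24 in CKO blastocysts over 4 positions. Zygote libraries had 18 to 75 counts in the chromosome 12 tile and 24 to 88 in the chromosome 14 tile. Among all 653 retained tiles, 18 had CKO higher in zygotes and lower in blastocysts without overlap and 14 the reverse, while 36 had CKO higher and 5 CKO lower at both stages. As shares of the retained tiles, the opposite patterns were 2.76% and 2.14%. They were 2.25% and 1.67% of the other sperm-methylated tiles and 1.26% and 0.918% of all tiles tested, so nothing particular to the retained tiles is read from them. CKO was higher at both stages in 5.51% of the retained, 8.51% of the other sperm-methylated and 3.67% of all tiles tested. The shares with CKO lower at both stages were 0.766%, 0.873% and 0.473% in turn.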

How the results depend on the processing

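Of 118 values recomputed under alternatives none changed sign, but several sizes moved by more than their SD. The 118 include counts, shares and levels, which cannot be negative, so only the differences among them could change sign. The blastocyst genotype difference in retained tiles, 5.09 points, was 7.24 at a threshold of 40%, 2.22 at 60%, and 2.82 to 10.4 with single libraries left out. The share of retained tiles with at least 4 positions was 23.7% at 10 or more counts. The zygote excess of retained tiles ran from 9.70 to 13.9 points and the zygote genotype difference from 7.69 to 9.37 points with single libraries left out. Over all alternatives they ran from 6.16 to 15.9 and from 6.75 to 12. With tiles chosen on the CKO blastocysts alone, the genotype difference was 11.0 points (SD 0.999) against 7.59, and retained minus other was -1.77 points (SD 1.28) against -5.48. With tiles of a zygote mean under 80% these were 12 (SD 0.943) and -2.87 points. Both settings were added after the data were seen. The number of retained tiles called between genotypes stayed at 0 in every zygote fit. At an unadjusted p below 0.05 in zygotes, 18 (common dispersion) to 89 (limma) retained tiles were found, against 52 in the main fit. Over all 14811 tiles the same fits had 180, 1169 and 605 in turn, so the count moved with the test in all tiles. With a minimum of 5 counts at the deepest position, added after the data were seen, 13.0% of 3625 tiles were retained.

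The replicate numbers did not pair the libraries: the deviations of same-numbered WT and CKO libraries correlated at 0.0196 in zygotes and 0.00957 in blastocysts over 14811 tiles. With the replicate number as a block the means were the same, at 7.59 points in zygotes with a paired SD of 1.49, -5.48 points for the gap to the other tiles and 5.09 points in blastocysts, and edgeR called 0 retained tiles. With 2 libraries against 2, no comparison of genotypes could fall under a permutation p of 0.333, so the p-values say nothing on stability.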

Other observations

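Positions within a retained tile of 8 or more positions could differ widely in level, both at equal counts and between positions with different counts. In the chromosome 5 tile from 9408201, WT blastocysts had 8 of 10 methylated counts at position 9408218 and 4 of 10 at position 9408232, but 0 of 9 at each of positions 9408226, 9408233, 9408237 and 9408266. CKO blastocysts had 10 of 12 at position 9408232 and 6 of 6 at position 9408233. In the WT replicates the positions with 10 counts had 4 and 6, and those with 9 counts had 6 and 3. Positions with the same counts can be covered by the same reads, so the values of 0 of 9 need not be independent. In the chromosome 7 tile from 29677701, WT blastocysts had 27 of 31 at position 29677715 and 7 of 23 at the adjacent position 29677716. At the last position of this tile, 29677737, they had 2 of 23, and CKO blastocysts 20 of 31. The WT replicates had 10 and 21 counts at position 29677715 but 16 and 7 at position 29677716. At least part of the reads behind these adjacent positions therefore differed. The tables do not give the strand of a position.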
